A study of Homo sapiens with 20 samples.

Results

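Transcripts of 9 genes of the p53 pathway were followed in human pancreatic progenitors (PPs) while transcription was blocked with actinomycin D (Act D), and in islet-like organoids (hILOs). The genes were chosen by name, as *CDKN1A*, *MDM2*, *GDF15*, *SESN1*, *SESN2*, *BBC3*, *PMAIP1*, *TP53INP1* and *PLK2*, and each matched 1 Ensembl identifier among 60623 in the PP tables and 60624 in the hILO tables. All cells came from MEL1, an established human embryonic stem cell line, which the study's methods give as MEL1 INS GFP/W, with a GFP reporter at the insulin locus that both genotypes share. They had either no edit of *ALKBH5* (WT) or indels in the first exon of *ALKBH5* made by CRISPR-Cpf1 (A5-KO). ALKBH5 is an enzyme that removes the methyl group of N6-methyladenosine from RNA. PPs had been differentiated to day 14 and were collected after 0, 1, 2 or 3 h with Act D at 1 μg per ml, with 2 libraries for each genotype and time and 16 in all. The 0 h libraries are the controls without the block. hILOs, aggregates cultured further towards islet cells, were not given Act D and have 2 WT and 2 A5-KO libraries. The A5-KO line was expanded from a picked colony, so a difference between the genotypes also holds whatever else sets that line apart from WT. The study calls its replicates biological, and the labels do not say whether the libraries of a group came from separate cultures, so the p-values measure the spread between these libraries.

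p53 is a transcription factor that is kept low by the ubiquitin ligase MDM2 and accumulates when DNA or ribosome production is disturbed. Its targets arrest the cell cycle (*CDKN1A*, which encodes the cyclin-dependent kinase inhibitor p21), feed back on p53 (*MDM2*), restrain mTORC1 and oxidation (*SESN1* and *SESN2*) or promote apoptosis (*BBC3*, which encodes PUMA, and *PMAIP1*, which encodes NOXA). Act D intercalates into DNA and blocks RNA synthesis, so a transcript's level afterwards reflects mainly how fast it is degraded, and Act D is itself known to activate p53 at low doses. The comparisons below ask how far each transcript fell in each genotype, and whether the genotypes differed.

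The PP tables hold read counts scaled to 1 common library total (CPM), so a level is a share of the library and not an absolute amount, and the share of a slowly decaying transcript can rise under Act D. In such bulk samples, fewer cells of a type and less RNA per cell cannot be told apart. Between 30516384 and 35206514 reads lay behind each PP library, and between 154 (*BBC3*) and 5480 (*CDKN1A*) reads behind a level of these genes. Before Act D, *ALKBH5* itself had 149 and 172 CPM in the WT libraries against 19.1 and 18.8 in those of A5-KO. Its WT level was down to 48.3 and 33.7 CPM after 3 h. From 1 to 3 h its log2 change was -1.67 ± 0.16 (SE) in WT, where 13 of 13620 genes were called lower. In A5-KO it was -0.37 ± 0.16, not called. The difference between genotypes was 1.31 ± 0.23, of opposite sign to that of 8 of the 9 genes below, and its cause was not tested. All 8 markers of pancreatic progenitors averaged 1 CPM or more in both genotypes. At 0 h they summed to between 1019 and 1292 CPM in WT and between 966 and 1071 CPM in A5-KO. Of the 8, 1 was called lower in A5-KO at 0 h and 8 at 3 h (median -2.10), against 151 and 2605 of 13620 genes. All 5 hepatocyte markers were also detected, at 693 to 704 CPM in WT and 1547 to 1572 CPM in A5-KO at 0 h. Of the 5, 4 were called higher in A5-KO at 0 h and 4 at 3 h, against 189 and 168 of 13620 genes. Of 5 mesenchyme markers, 3 were higher in A5-KO at 0 h (median 0.94) and 3 at 3 h (median 1.05), and for 2 the change from 1 to 3 h was more positive in A5-KO. For 2 of the 5 hepatocyte markers that change was more negative in A5-KO (list median -0.40, against -0.20 for all genes). Of all 13620 genes, 164 were called more positive and 2217 more negative in A5-KO for that change. The part of these differences in the results below was not tested. The second WT library at 2 h stood apart: the levels of 8 of the 9 genes were higher in it than in the first, with a median log2 difference of 0.82, while in the other 7 groups the median difference lay between -0.23 and 0.17. Results at 2 h are therefore given with and without each of these libraries.

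The promoters and 3′ untranslated regions are shown first, since p53 acts through the former and the latter hold elements that bear on decay. RefSeq promoter windows (250 bases before to 50 after a start site, build GRCh38.p14) were found for 8 of the 9 genes, 13 windows in all. The windows were searched for the p53 consensus response element, taken as 2 abutting half-sites with no spacer, the C and G of both cores kept, and at most 3 mismatches at the other 16 positions. The consensus reads the same on both strands. It was found in 5 of the 13 windows, for 4 genes, against 1.12% of all 35116 windows. The element is in capitals.
*MDM2*, chr12:68808903-68808962, plus strand, 2 mismatches: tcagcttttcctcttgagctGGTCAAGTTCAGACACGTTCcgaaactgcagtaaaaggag
*SESN1*, chr6:109008998-109009057, minus strand, 3 mismatches: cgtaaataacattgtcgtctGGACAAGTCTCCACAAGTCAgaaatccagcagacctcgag
*PMAIP1*, chr18:59899791-59899850, plus strand, 3 mismatches: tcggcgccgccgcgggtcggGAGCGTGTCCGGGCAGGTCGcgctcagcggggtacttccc
*GDF15*, chr19:18386181-18386207, plus strand, 3 mismatches: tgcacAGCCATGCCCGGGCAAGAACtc
The *MDM2* element lies at -94 and -101 from the start sites of the 2 overlapping windows that hold it, that of *SESN1* at -49, that of *PMAIP1* at -185 and that of *GDF15* at 28. No match was found in the windows of *CDKN1A*, *SESN2*, *BBC3* and *PLK2*, which says only that these letters are not there, and *TP53INP1* is named only. A match is a description of these letters and not a binding site.

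The pentamer ATTTA, written in DNA letters, was counted in the 3′ untranslated region of the canonical GENCODE transcript of 8 of the genes. *GDF15* had 5 in 241 bases, a density of 20.7 per kb that was higher than in 99.92% of 12202 genes tested in PPs. *MDM2* had 23 in 5695 bases, *SESN1* 9 in 3235, *PMAIP1* 5 in 1552, *CDKN1A* 3 in 1532 and *PLK2* 2 in 601. *SESN2* and *BBC3* had none in 1689 and 978 bases, whereas 73.86% of the 12202 genes had at least 1 and their median density was 1.75 per kb. The longer form TTATTTA, present in 33.98% of these genes, was found in 5 of the 8. A stretch of 27 bases around it is shown for each, with ATTTA in capitals.
*CDKN1A*, bases 164 to 190 of the region: ggcattagaattATTTAaacaaaaact
*MDM2*, bases 1897 to 1923: aacagaattgttATTTAaaaactaact
*GDF15*, bases 188 to 214: aactgtgtATTTATTTAaaactctggt
*PMAIP1*, bases 1208 to 1234: aggaataattttATTTAttttgcctat
*PLK2*, bases 489 to 515: aataaactttttATTTAttacagccca

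Without Act D the genes differed in level per length. In WT PPs at 0 h, *CDKN1A* was highest at 52.5 and 45.5 CPM per kb of exon, followed by *GDF15* at 29.8 and 26.8 and *PLK2*, a polo-like kinase, at 16.03 and 13.58. *SESN2* (12.97 and 10.57), *MDM2* (12.9 and 10.8) and *TP53INP1*, which encodes a p53-induced nuclear protein (11.7 and 8.42), overlapped one another, and *PMAIP1* (9.26 and 9.23) lay within the range of *TP53INP1*. *BBC3* (8.02 and 6.82) and *SESN1* (5.64 and 5.05) were lowest and did not overlap with each other or with *PMAIP1*. Lengths are the union of exons in GENCODE on GRCh38, and the NEBNext Ultra kit that the labels name does not mark strand. *MDM2* shares 785 of 8306 exon bases with an antisense long non-coding RNA, 133 with the antisense gene *CPM* and 439 with a pseudogene. Antisense exons also overlap *SESN1* (363 of 7276), *CDKN1A* (146 of 2996) and *TP53INP1* (225 of 5643 with *NDUFAF6*), and *BBC3* shares 80 and 76 of 3185 with microRNA genes. Reads there cannot be told apart by gene, and the levels of these genes are uncertain to that extent.

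In the first hour of Act D most of the 9 transcripts fell steeply in WT PPs. From 1 to 3 h in WT none of them was called lower, and of all 13620 genes tested only 13 were. In A5-KO PPs 5 fell in the first hour (17.1% of all genes tested did) and 8 from 1 to 3 h (16.9%), and at 3 h 8 of the 9 were lower than in WT (19.1%). *PMAIP1* was the exception in the late fall in A5-KO and in the genotype difference at 3 h. Each gene is described below by its role, in CPM per library, and differences are on the log2(CPM + 0.1) scale with the standard error (SE). A gene was called when its limma p, adjusted over 13620 genes by Benjamini-Hochberg, was below 0.05 and its change exceeded 1.5-fold. All 9 passed the filter on low values. Comparisons that use the same libraries, such as 1 h and 3 h against 0 h, are not independent.

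**Figure D1:**
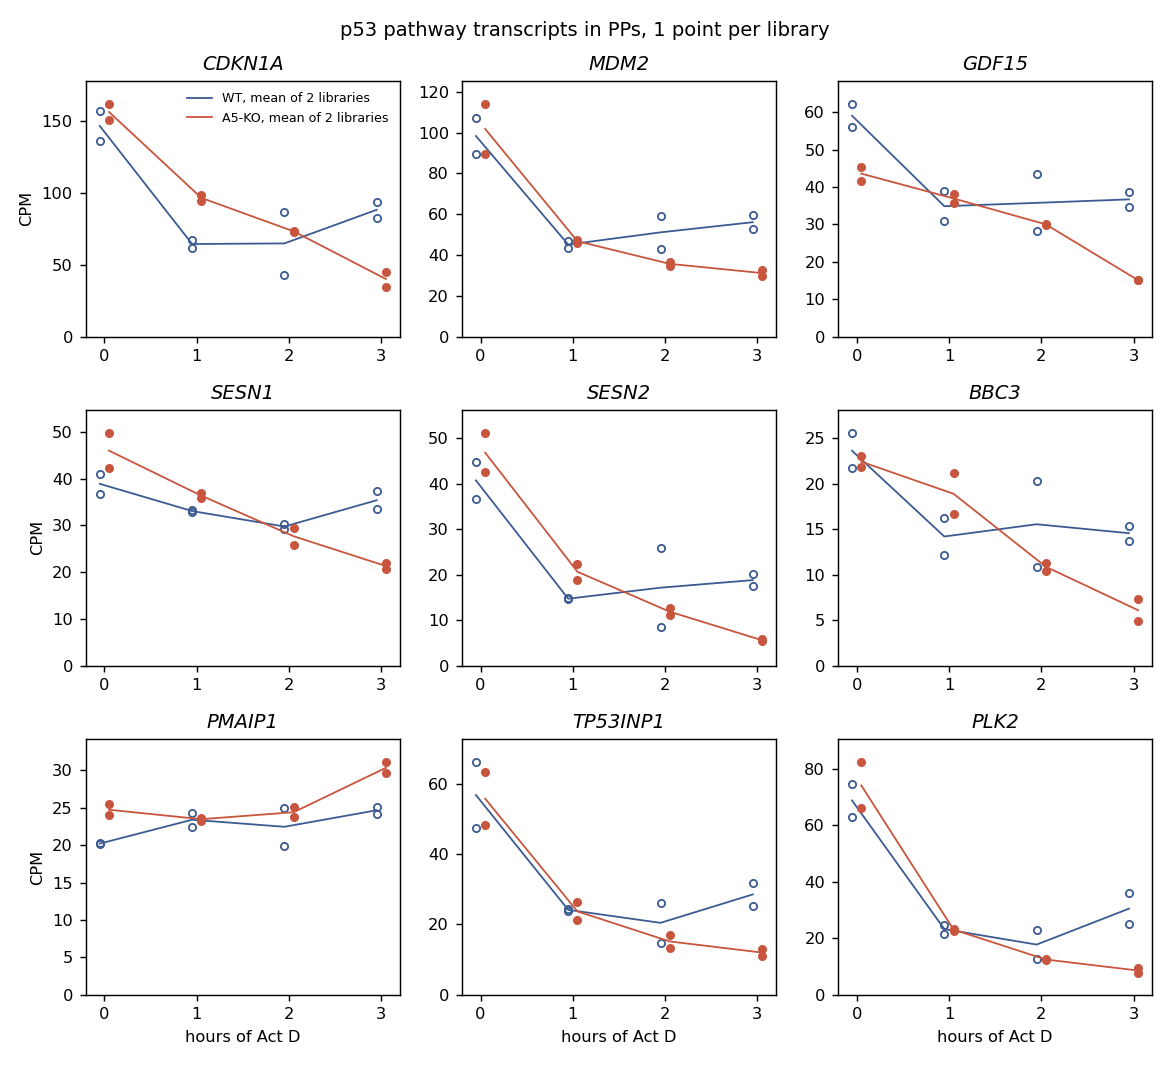
Level of each transcript in CPM (y axis, from 0) against hours of Act D (x axis) in PPs, with open blue points for WT libraries, filled red points for A5-KO libraries and lines through the means of 2 libraries. The WT lines end higher at 3 h than at 1 h, some after a dip at 2 h, as for *PLK2*. *PMAIP1* lies between 19.9 and 31.0 CPM throughout, and the other A5-KO lines go on falling to 3 h.

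*CDKN1A* (ENSG00000124762, chr6:36676460-36687337, plus strand), which encodes p21, had WT levels of 157 and 136 CPM before Act D, 61.5 and 67.6 after 1 h, 42.8 and 87.1 after 2 h, and 83.0 and 93.9 after 3 h. The A5-KO libraries gave 162 and 151 CPM before Act D, 98.9 and 94.6 after 1 h, 72.9 and 73.9 after 2 h, and 45.4 and 34.9 after 3 h. Both A5-KO libraries lay above both WT libraries at 1 h and below both at 3 h. The fall in the first hour was -1.18 ± 0.22 (SE) in WT and -0.69 ± 0.22 in A5-KO, and their difference of 0.49 ± 0.30 was not called (limma adjusted p = 0.700). At 3 h A5-KO was lower than WT by 2.21-fold (log2 -1.15 ± 0.22, limma adjusted p = 0.000811).

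*MDM2* (ENSG00000135679, chr12:68808177-68845544, plus strand), whose product marks p53 for destruction, had WT levels of 107 and 89.4 CPM before Act D, 43.5 and 46.7 after 1 h, 43.1 and 59.1 after 2 h, and 52.7 and 59.5 after 3 h. Its A5-KO levels were 114 and 89.7 CPM before Act D, 47.6 and 46.0 after 1 h, 34.8 and 36.6 after 2 h, and 32.6 and 29.7 after 3 h. The genotypes overlapped at 0 and 1 h, and all A5-KO libraries lay below all WT libraries at 2 and 3 h. In the first hour it fell by nearly the same amount in both genotypes, -1.12 ± 0.14 in WT and -1.11 ± 0.14 in A5-KO (difference 0.01 ± 0.20). At 2 h the difference of -0.50 ± 0.14 passed the adjusted p (0.0337, limma) but stayed under 1.5-fold. Over 24 alternatives, among them each WT library at 2 h left out, this 2 h difference lay between -0.73 and -0.27. At 3 h the difference was -0.85 ± 0.14 (limma adjusted p = 0.000384).

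*SESN2* (ENSG00000130766, chr1:28259518-28282491, plus strand), one of the stress-induced sestrins, had WT levels of 44.9 and 36.6 CPM before Act D, 14.8 and 14.7 after 1 h, 8.41 and 25.9 after 2 h, and 17.5 and 20.1 after 3 h. The levels in A5-KO were 51.1 and 42.6 CPM before Act D, 22.4 and 18.9 after 1 h, 12.6 and 11.1 after 2 h, and 5.79 and 5.41 after 3 h. A5-KO was thus above WT in both libraries at 1 h and below it in both at 3 h. Its fall from 0 to 3 h was 8.21-fold in A5-KO (log2 -3.04 ± 0.32) and 2.15-fold in WT (log2 -1.11 ± 0.32).

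*SESN1* (ENSG00000080546, chr6:108984309-109094846, minus strand), its relative, had WT levels of 41.0 and 36.7 CPM before Act D, 32.9 and 33.3 after 1 h, 29.2 and 30.4 after 2 h, and 37.3 and 33.5 after 3 h. In A5-KO the values were 49.7 and 42.3 CPM before Act D, 35.9 and 36.8 after 1 h, 29.5 and 25.9 after 2 h, and 22.0 and 20.6 after 3 h. No change of *SESN1* was called in WT, where the 3 h libraries overlapped with those at 0 h. In A5-KO its change in the first hour passed the adjusted p (0.0322, limma) but not 1.5-fold, and the fall from 1 to 3 h was called at -0.77 ± 0.11 (limma adjusted p = 0.000180).

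*GDF15* (ENSG00000130513, chr19:18374731-18389176, plus strand), a secreted cytokine of the TGF-β family, had WT levels of 62.1 and 56.0 CPM before Act D, 30.9 and 38.9 after 1 h, 28.2 and 43.4 after 2 h, and 38.8 and 34.6 after 3 h. A5-KO levels ran through 41.8 and 45.5 CPM before Act D, 35.8 and 38.1 after 1 h, 30.2 and 29.9 after 2 h, and 15.1 and 15.1 after 3 h. It started lower in both A5-KO libraries, a difference of -0.44 ± 0.16 that did not pass adjustment (limma adjusted p = 0.165). It hardly moved in A5-KO in the first hour (-0.24 ± 0.16, not called) and then fell by 2.44-fold to 3 h. In WT the order was the opposite, with -0.77 ± 0.16 in the first hour and 0.08 ± 0.16 from 1 to 3 h.

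*BBC3* (ENSG00000105327, chr19:47220822-47232766, minus strand), which encodes the BH3-only protein PUMA, had WT levels of 25.5 and 21.7 CPM before Act D, 12.2 and 16.2 after 1 h, 10.8 and 20.3 after 2 h, and 13.8 and 15.4 after 3 h. The matching A5-KO values were 21.9 and 23.0 CPM before Act D, 16.6 and 21.2 after 1 h, 10.4 and 11.3 after 2 h, and 7.33 and 4.87 after 3 h. As for *GDF15*, the fall in A5-KO came mainly after 1 h, at -1.63 ± 0.25 against -0.26 ± 0.25 in the first hour.

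*PMAIP1* (ENSG00000141682, chr18:59899996-59904305, plus strand), which encodes the BH3-only protein NOXA, had WT levels of 20.2 and 20.2 CPM before Act D, 24.3 and 22.5 after 1 h, 25.0 and 19.9 after 2 h, and 25.1 and 24.2 after 3 h. Its levels in A5-KO were 25.5 and 24.0 CPM before Act D, 23.3 and 23.7 after 1 h, 25.1 and 23.7 after 2 h, and 29.6 and 31.0 after 3 h. It did not fall in either genotype, and the A5-KO libraries at 3 h were its highest. The rise in A5-KO from 1 to 3 h (0.37 ± 0.12) and from 0 to 3 h (0.29 ± 0.12) passed the adjusted p (0.0300 and 0.0487, limma) but stayed under 1.5-fold. These are gains in share of the library, and 93.44% and 85.05% of genes had a lower change.

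*TP53INP1* (ENSG00000164938, chr8:94925972-94949378, minus strand), which acts in autophagy and apoptosis, had WT levels of 66.1 and 47.5 CPM before Act D, 24.4 and 23.9 after 1 h, 14.7 and 26.2 after 2 h, and 25.4 and 31.7 after 3 h. The A5-KO values were 63.3 and 48.2 CPM before Act D, 26.3 and 21.2 after 1 h, 16.9 and 13.4 after 2 h, and 13.1 and 10.9 after 3 h. The genotypes overlapped at 0, 1 and 2 h and separated at 3 h.

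*PLK2* (ENSG00000145632, chr5:58453982-58460139, minus strand), a kinase of the centrosome cycle, had WT levels of 74.5 and 63.1 CPM before Act D, 21.6 and 24.9 after 1 h, 12.6 and 23.0 after 2 h, and 25.0 and 36.0 after 3 h. Levels in A5-KO were 82.2 and 66.0 CPM before Act D, 22.8 and 23.4 after 1 h, 12.5 and 12.5 after 2 h, and 9.34 and 7.81 after 3 h. It had the largest fall of the 9 in the first hour in both genotypes, -1.56 ± 0.23 in WT and -1.67 ± 0.23 in A5-KO. At 3 h A5-KO was 3.48-fold lower than WT (log2 -1.80 ± 0.23, limma adjusted p = 4.1e-05), also the largest difference of the 9.

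In WT, 7 of the 9 genes were lower at 1 h than at 0 h (all but *SESN1* and *PMAIP1*), against 15.4% of all genes tested. The median change of the 9 was -1.12, and that of all genes -0.13. From 1 to 3 h in WT none of the 9 was called in either direction, against 0.661% of all genes, by limma, edgeR or DESeq2, and 1 (*MDM2*) had an unadjusted p below 0.05. Their changes in this interval lay between 0.05 (*BBC3*) and 0.45 (*CDKN1A*), all above 0 but none beyond the test. Over all 13620 genes the median in this interval was 0.04, with 77 called higher and 13 lower. The lack of a late fall in WT was thus not particular to the 9 genes. At 3 h against 0 h, 6 of the 9 were lower (9.37% of all genes), with *SESN1*, *BBC3* and *PMAIP1* not called. This count rests on single libraries: it was 0 without the first WT library at 0 h, 2 or 3 without either WT library at 3 h, and 3 without the filter on low values.

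In A5-KO, 5 of the 9 were lower at 1 h than at 0 h (*CDKN1A*, *MDM2*, *SESN2*, *TP53INP1* and *PLK2*), against 17.1% of all genes. Without the first library at 0 h, or without the second at 1 h, 3 were (*MDM2*, *TP53INP1* and *PLK2*). From 1 to 3 h, 8 of the 9 were lower (16.9% of all genes), with a median of -1.28 against -0.13 for all genes, and at 3 h against 0 h the same count was 8 (32.0%), with medians of -1.89 and -0.25. *PMAIP1* was the 1 not called in both. Scaling by the median of ratios in place of the fixed total moved the median of all genes from -0.25 to 0.04 in this last comparison, and 8 of the 9 were called lower in it still. From 1 to 3 h edgeR, DESeq2 and median-of-ratios scaling each called 7, without *MDM2*.

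**Figure D2:**
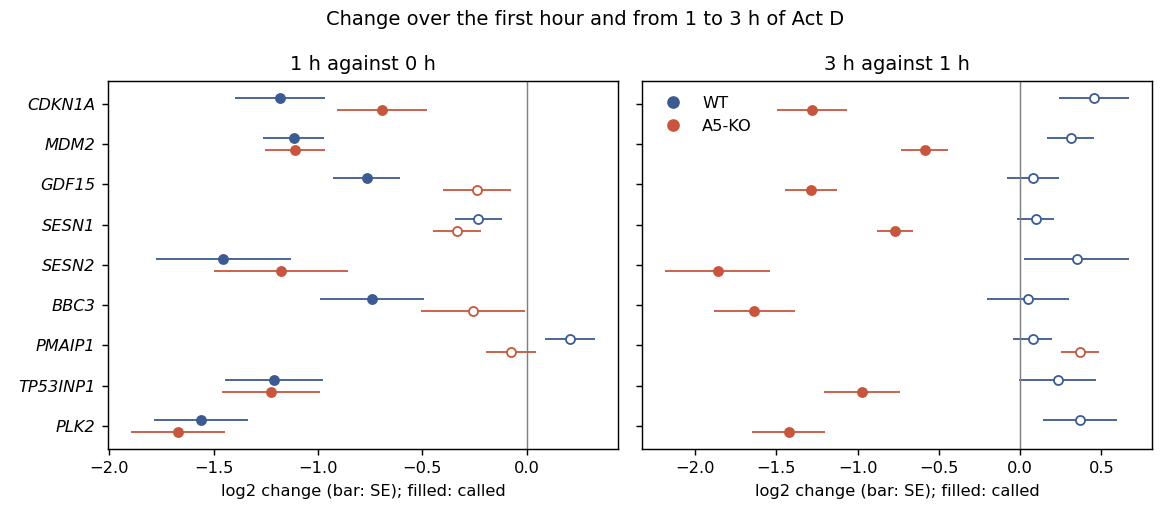
Log2 change of each transcript (x axis, bars are SE) from 0 to 1 h (left) and from 1 to 3 h (right) of Act D, with WT in blue, A5-KO in red and filled points for called changes. In the left panel both genotypes lie mostly below 0, from -1.67 to 0.21, and in the right panel the WT points lie between 0.05 and 0.45 while 8 A5-KO points lie between -1.86 and -0.59.

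The change in the first hour was not shown to differ between the genotypes for any of the 9. None was called by limma, edgeR or DESeq2 (0.235% of all genes were, by limma), and 1 (*GDF15*) had an unadjusted p below 0.05. From 1 to 3 h the change differed for 8 of the 9, each falling more in A5-KO, against 16.3% of all genes. The differences ranged from -0.86 ± 0.16 (*SESN1*) to -2.21 ± 0.46 (*SESN2*), their median was -1.37, and that of all genes was -0.20. For *PMAIP1* the difference was 0.29 ± 0.17 (limma adjusted p = 0.245). edgeR and DESeq2 on the reads recovered from the CPM each called 8 as well. Of the 8 pancreatic progenitor markers 7 were also called with a larger late fall in A5-KO, with a median of -2.11. Over all times these markers summed to between 238 and 1292 CPM in WT and between 111 and 1071 CPM in A5-KO, and their part in the result was not tested.

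Compared at each time, the genotypes did not differ by the test at 0 h for any of the 9 (2.50% of all genes called). *GDF15* and *PMAIP1* had an unadjusted p below 0.05 there. At 1 h none was called (4.29%), with *CDKN1A* at an unadjusted p below 0.05 (0.58 ± 0.22). At 2 h none was called (7.55%), and the result turned on the WT libraries: without the first, 5 genes were lower in A5-KO (*MDM2*, *SESN2*, *BBC3*, *TP53INP1* and *PLK2*), and without the second, 1 (*CDKN1A*) was higher. *SESN2* went from -1.12 without the first, a called change, to 0.49 without the second, which was not called. edgeR and DESeq2 called none at 0, 1 or 2 h. At 3 h, 8 of the 9 were lower in A5-KO (19.1% of all genes), with a median of -1.24 against -0.14, and for each of the 8 both A5-KO libraries lay below both WT libraries. edgeR called 8 and DESeq2 7, without *SESN1*.

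**Figure D3:**
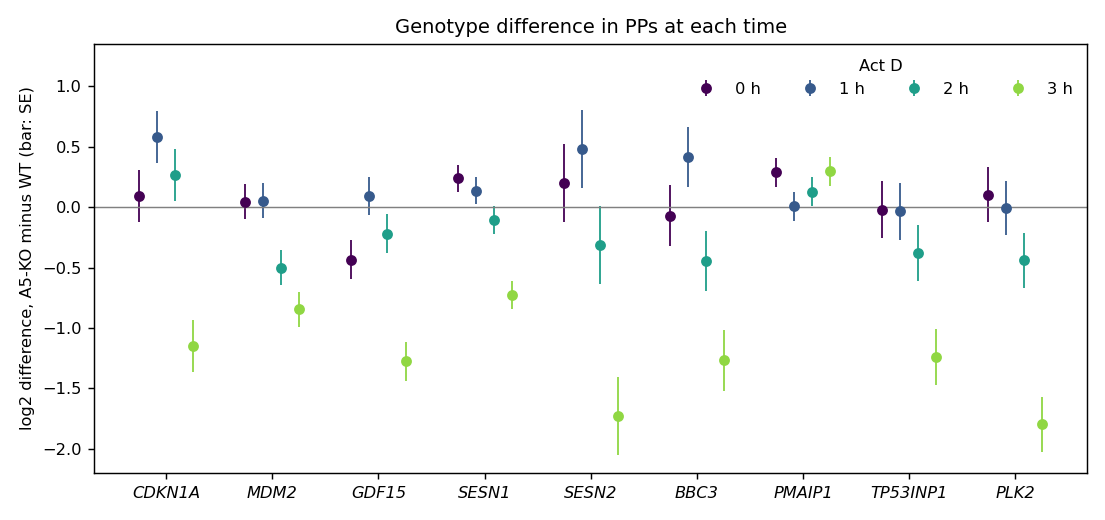
Log2 difference of A5-KO minus WT for each transcript (y axis, bars are SE) at 0, 1, 2 and 3 h of Act D. At 0 and 1 h the points lie between -0.44 and 0.58, and at 3 h 8 of the 9 lie between -1.80 and -0.73 with *PMAIP1* at 0.30.

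A line through the origin over the 3 times gave a slope in log2 units per hour for each replicate number, as a description. Slopes in A5-KO ranged from -1.15 ± 0.06 (*PLK2*; SD, n = 2) and -1.02 ± 0.03 (*SESN2*) to -0.36 ± 0.04 (*SESN1*) among the 8 that fell. In WT they ranged from -0.65 ± 0.25 (*PLK2*) to -0.10 ± 0.03 (*SESN1*). The medians over all genes were -0.10 in A5-KO and -0.05 in WT. *PLK2* fell more steeply than all but 1.95% of genes in A5-KO and all but 2.56% in WT, and *SESN1* than all but 21.9% and 37.0%. The slope of *PMAIP1* was above 0 in both, at 0.06 ± 0.03 in A5-KO and 0.10 ± 0.05 in WT. The slopes depended on the times used, and that of *PLK2* in WT was -1.56 from 0 and 1 h only and -0.40 from 0 and 3 h only. The WT levels did not follow a line, with no called change after 1 h, and the replicate numbers do not pair libraries across times.

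The other genes of the pathway were taken from 4 lists, and relatives of the 9 from another. Among 6 regulators of p53, the change from 1 to 3 h differed between genotypes for 1, a share near that of all genes (16.3%). It was *PPM1D*, a phosphatase that turns p53 off (-2.37 ± 0.60, limma adjusted p = 0.0113). Its WT levels were 35.3 and 24.1 CPM before Act D and 6.53 and 9.92 after 3 h. Those of A5-KO were 37.8 and 25.1 CPM before and 1.85 and 1.23 after 3 h. *MDM4*, a relative of *MDM2* that inhibits p53, was called lower in A5-KO at 2 h (-0.59 ± 0.12, limma adjusted p = 0.00492) and in no other PP comparison. Without the first WT library at 2 h this was -0.61 ± 0.14 and still called, and without the second it was -0.58 ± 0.14, under 1.5-fold.

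Of 10 targets in the cell cycle and repair, 5 had a larger late fall in A5-KO, against 16.3% of all genes, with a list median of -0.77. They were *BTG2*, an antiproliferative gene (-1.82 ± 0.32), *SFN*, which encodes 14-3-3σ, *PLK3*, *GADD45A* and *POLH*, a translesion polymerase. Of 12 apoptosis targets tested 3 did, *AEN*, a nuclease (-1.83 ± 0.50), *PHLDA3* and *TRIAP1*, a share near that of all genes, and the list median was -0.21 against -0.20 for all genes. Of 6 metabolic and autophagy targets tested none did by limma (list median -0.21). *TP53AIP1* and *GLS2* were too low to test. Of 12 relatives of the 9 genes 4 did, against 16.3% of all genes: *CDKN1B* (-1.60 ± 0.28), *PLK1*, *PLK3* and *PLK4*. *PLK3* is in both this list and that of the cell cycle and repair targets. No gene of these 5 lists was called in the other direction for this difference. In the first hour *AEN* fell most of all listed genes in both genotypes, by -3.23 ± 0.35 in WT and -2.89 ± 0.35 in A5-KO, while the apoptosis list as a whole had a median of -0.02 in WT and -0.15 in A5-KO.

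**Figure D4:**
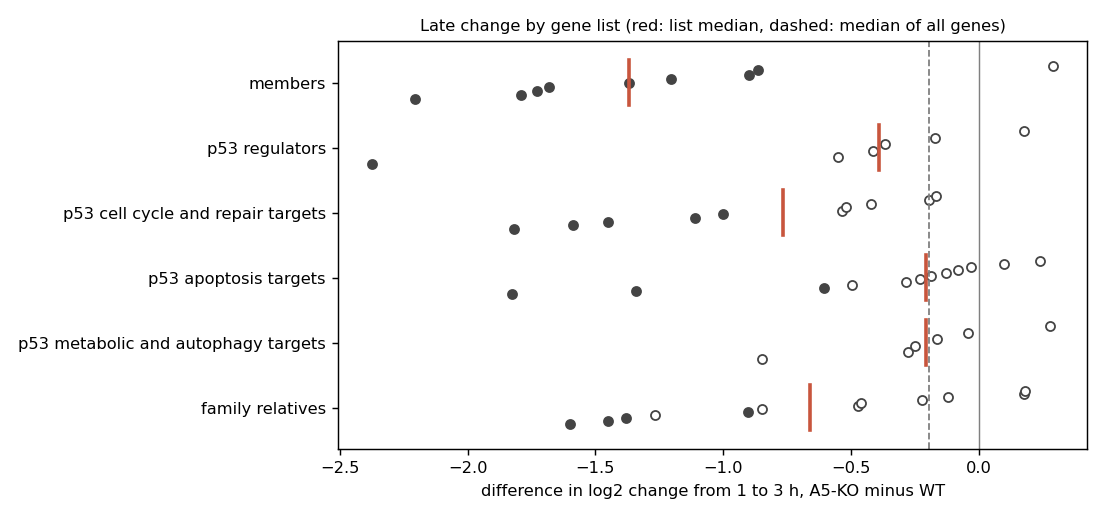
Difference between genotypes (A5-KO minus WT) in the log2 change from 1 to 3 h for each tested gene of the lists (x axis), filled where called, with the list median in red and the median of all genes, -0.20, as a dashed line. The 9 genes (members) and the cell cycle targets lie mostly left of the dashed line, and the apoptosis and metabolic lists have medians near it.

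The levels of 8 of the genes moved together over the 16 PP libraries, which share the time course, so a correlation describes that shared course. Pearson's r of log2(CPM + 0.1) between pairs of the 8 lay between 0.82 (*GDF15* and *MDM2*) and 0.99 (*PLK2* and *TP53INP1*), and *PMAIP1* was negatively correlated with each (-0.89 to -0.54). Among 8920 genes averaging 10 CPM or more, the most like *PLK2* were *WDR43* (r = 0.996) and *CWC22* (0.996), the most like *TP53INP1* were *KLHL9* (0.994) and *RHOU* (0.992), and the most like *MDM2* were *FBXO28* (0.993) and *SBNO1* (0.991). *SESN2* was most like *XBP1* (0.991) and *RAP2B* (0.987), *BBC3* most like *PYM1* (0.983) and *POP7* (0.980), and *CDKN1A* most like *FZD8* (0.979) and *ENC1* (0.979). *SESN1* was most like *MT-ND2* (0.980) and *DNAJA2* (0.973), *GDF15* most like *HS6ST1* (0.972) and *SPATS2L* (0.970), and *PMAIP1* most like *GTF2H3* (0.914).

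In hILOs, where values are length-normalised transcript levels (TPM) and no Act D was given, 1 of the genes was called and 3 others passed the adjusted p with changes under 1.5-fold. *PMAIP1* was the 1 called, lower in A5-KO at 11.2 and 9.85 TPM against 17.04 and 18.39 in WT (-0.70 ± 0.11 on the log2(TPM + 1) scale, limma adjusted p = 0.0301), against 4.09% of 17300 genes called lower. *CDKN1A* was higher in A5-KO in both libraries, at 327 and 306 TPM against 219 and 221, a change of 0.52 ± 0.05 that passed the adjusted p (0.00992, limma) but not 1.5-fold. *TP53INP1* at 79.5 and 78.9 TPM against 51.5 and 55.5 (0.56 ± 0.06), and *PLK2* at 78.2 and 78.0 against 56.2 and 60.7 (0.41 ± 0.06), did likewise (limma adjusted p = 0.0142 and 0.0252).

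The other 5 genes were not called in hILOs. *GDF15*, the highest of the 9, was at 559 and 608 TPM in WT and 586 and 566 in A5-KO. *SESN2* was at 32.3 and 32.7 against 30.0 and 31.8, and *SESN1* at 25.7 and 25.4 against 29.9 and 28.1. *MDM2* was at 13.4 and 12.2 TPM in WT and 12.6 and 17.6 in A5-KO, and *BBC3* at 12.8 and 12.5 against 14.2 and 10.0, with the genotypes overlapping for both. Of the listed genes, *FAS*, a death receptor, was higher in A5-KO (0.89 ± 0.16, limma adjusted p = 0.0411) and *PLK4* lower (-0.98 ± 0.15, limma adjusted p = 0.0302). *MDM4* (-0.71 ± 0.15, limma adjusted p = 0.0579) missed the adjusted p. The calls of these 9 genes in hILOs hung on the processing: the *PMAIP1* call was lost without the filter on low values, with the replicate block and without any 1 of the 4 libraries. With median-of-ratios scaling *CDKN1A* and *TP53INP1* also passed as higher. *ALKBH5* was at 78.8 and 81.9 TPM in WT and 4.16 and 3.42 in A5-KO. Hepatocyte markers summed to between 18390 and 18750 TPM in WT hILOs and between 30590 and 30930 TPM in A5-KO, with 2 of the 5 called higher (*ALB* and *TTR*), 1 lower (*FGB*) and a median log2 change of 0.17. Of all 17300 genes tested in hILOs, 467 were called higher and 707 lower. Islet endocrine markers summed to between 34460 and 36770 TPM in WT and between 26410 and 27620 TPM in A5-KO. Of these 7 markers 4 were called lower in A5-KO and 1 higher, with a median log2 change of -0.77. The part of these markers in the differences was not tested.

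**Figure D5:**
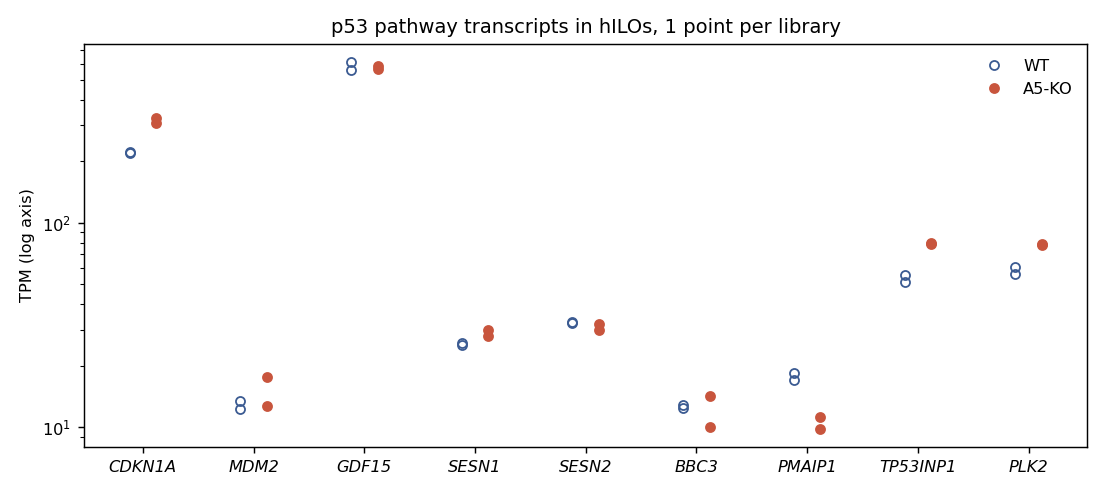
Level of each transcript in TPM (y axis, log scale) in hILOs, with open blue points for WT libraries and filled red points for A5-KO libraries. The A5-KO points lie above WT for *CDKN1A*, *SESN1*, *TP53INP1* and *PLK2* and below it for *PMAIP1* and *SESN2*.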

How the data were processed

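RNA-seq of 16 PP and 4 hILO libraries was analysed. Genotype, stage, time and replicate came from the sample labels. The authors trimmed reads with fastp and aligned them to GRCh38 with HISAT2 2.1.0. For PPs they deposited CPM per gene and library, and for hILOs TPM per gene from StringTie. The counter behind the CPM and the annotation release are not given in the sources used here. Spike-ins were added to PP RNA, but the deposited CPM were not scaled to them here, so decay is relative to the library total. Every CPM was a whole multiple of 1 read (100% of values within 0.05 of a whole read). TPM keeps no depth, so counting error in hILOs is unknown.

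Genotypes and times were compared in R 4.3.3 with limma 3.58.1, using moderated statistics with an intensity trend, on log2(CPM + 0.1) over all 16 PP libraries and on log2(TPM + 1) over the 4 hILO libraries, for genes averaging 1 or more. A call required an adjusted p (Benjamini-Hochberg) below 0.05 and a change over 1.5-fold, the limits of the study's methods. edgeR (4.0.16) and DESeq2 (1.42.0) were run on the recovered reads as alternatives, beside another pseudocount, no filter, median-of-ratios scaling, array weights, the replicate block, fits on fewer libraries and each library left out. All 9 genes are named. From each list, *MDM4* and at most 4 called genes with the largest change are named, together with the 2 genes most like each of the 9 and *ALKBH5*; the fifth called gene of 1 list was named after its values were seen. Some genes that this rule names are not reported here. The genes and lists were chosen with earlier results of these data known. Coordinates and exon lengths come from GENCODE (GRCh38). In simulated data for the first hour in WT, all 100 genes changed by 1 and all 100 changed by 2 on the log2 scale were recovered among 13620, with 4 unchanged genes called. The simulation gave every gene the same small relative spread and left genes of low level unchanged. It therefore checks the code and does not measure the power for the 9 genes at their own spread. Same-numbered libraries did not deviate together in PPs (28 pairs of groups, mean r -0.01, range -0.20 to 0.13) or in hILOs (r -0.01), so the numbers were not taken to pair libraries.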

Additional observations from a re-analysis of the deposited data

Results flagged for a closer look

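Between 1 and 3 h of Act D, 8 of the 9 transcripts changed differently in the 2 genotypes. This is by the test of the difference itself (A5-KO minus WT, log2 scale). Of all genes tested 16.3% were called lower in it, with a median of -0.20, and *PMAIP1* was not called (0.29 ± 0.17). The difference was -1.73 for *CDKN1A*, with a change of 0.45 in WT and -1.28 in A5-KO. It was -0.90 for *MDM2* (0.31 and -0.59), -1.37 for *GDF15* (0.08 and -1.29) and -0.86 for *SESN1* (0.10 and -0.77). It was -2.21 for *SESN2* (0.35 and -1.86), -1.68 for *BBC3* (0.05 and -1.63), -1.20 for *TP53INP1* (0.23 and -0.97) and -1.79 for *PLK2* (0.37 and -1.42). The limma adjusted p of these 8 lay between 0.0012 (*GDF15*) and 0.018 (*TP53INP1*). Over the alternatives it lay at most at 0.083, for *TP53INP1*, and at most at 0.037 for the other 7. The late change in A5-KO libraries and the level at 3 h in WT each rest on 2 libraries.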

How the results depend on the processing

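No alternative turned the direction of a log2 change called in the reported fit, and none gave a call against the direction reported. Between alternatives directions did turn at 2 h, where the WT libraries left out in turn gave -1.12 and 0.49 for *SESN2* and -0.25 and 0.78 for *CDKN1A*. Of 2664 values under alternatives 2538 kept their direction and call, 64 lost the call, 12 gained it and 50 uncalled values changed sign. The 8 genes with a negative slope in both genotypes kept that count in all 20 alternatives, but 49 of 216 slopes moved by more than the SD between replicates, such as that of *SESN1* in WT, from -0.10 to -0.05 with median-of-ratios scaling. In PPs the replicate block left the number of genes called in each of the 12 comparisons as it was, for example 7 in WT and 5 in A5-KO at 1 h against 0 h, and 8 for the difference between genotypes from 1 to 3 h. In hILOs the replicate block gave 0 in place of 1.

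For WT at 3 h against 0 h, 3 of the 9 were called without a filter on low values in place of 6, and between 0 and 7 with 1 library left out. The range with 1 library left out was 5 to 7 for WT at 1 h against 0 h, 3 to 5 for A5-KO at 1 h against 0 h, 6 to 8 for A5-KO at 3 h against 1 h, 0 to 5 for A5-KO against WT at 2 h, and 7 to 8 for the difference in the late change. In hILOs it was 0, the count was 0 without a filter and 3 with median-of-ratios scaling, where *CDKN1A* and *TP53INP1* were higher. In a group with 1 library left, that library is assumed to vary like the others. The *MDM4* values without a WT library at 2 h were added after seeing the data. The cause of these shifts was not tested. With 2 libraries in a group, the spread between them limits every comparison.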
